A study of Mus musculus with 6 samples.

Results

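The polyamine genes described here encode the enzymes that make and break down putrescine, spermidine and spermine, together with the antizymes that restrain synthesis and their inhibitor. They were chosen by symbol: Odc1, Amd1, Srm and Sms for synthesis, Sat1, Smox and Paox for catabolism, and Oaz1, Oaz2 and Azin1 for control, 10 of the 57010 genes in the expression table. RNA sequencing measured gastrocnemius, a calf muscle, of NSG mice (NOD/SCID/IL2Rγ-null, an immunodeficient strain) that carried a subcutaneous tumour in the left flank, grown from the human triple-negative breast cancer line MDA-MB-231. In both groups the tumour cells carried a knockdown of Rab27a, a small GTPase of vesicle secretion, and no group without the knockdown was analysed here. In the radiotherapy group (n = 3) the tumour was irradiated locally with 10 Gy in 1 dose at a volume of about 800 mm3, and the contralateral muscle was taken 3 days later. The control group (n = 3) is labelled only as control. Age is not stated. The title of the study concerns spermidine synthase secreted by tumours and muscle fibrosis upon radiotherapy. The values here are mouse muscle mRNA, so they do not measure protein made by the human tumour cells, and they do not measure enzyme activity or polyamines.

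Polyamines are small positively charged molecules that bind nucleic acids and are needed for translation and growth. Ornithine decarboxylase makes putrescine, and spermidine synthase and spermine synthase lengthen it in steps with aminopropyl groups from decarboxylated S-adenosylmethionine. Catabolism runs back by acetylation and oxidation, or by direct oxidation of spermine, which releases hydrogen peroxide. Antizymes, whose translation needs a frameshift that polyamines promote, bind ornithine decarboxylase and send it to the proteasome. In mouse skeletal muscle, Smox is known to be low in several forms of muscle atrophy.

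None of the 10 genes passed the test between radiotherapy and control. The lowest log2 fold changes, radiotherapy minus control, were those of Smox (−0.94), Oaz1 (−0.79), Odc1 (−0.67) and Sms (−0.54). Srm, the gene of the title, averaged 7.09 ± 3.25 TPM in radiotherapy muscle and 6.12 ± 1.10 TPM in control muscle (SD, n = 3 each), and its groups overlapped. The low values of several genes were concentrated in radiotherapy replicate 2, the library in which 6 of the 10 genes had their lowest value. Genes of other lists did the same there, 7 of 13 listed for polyamine use and transport and 6 of 11 for the methionine cycle and salvage. So did 5 of 6 listed for fast muscle fibre and 5 of 5 erythroid markers. Slow muscle fibre, fibroblast, adipocyte, Schwann cell and leukocyte markers did not, with 0 of 4, 0 of 5, 0 of 4, 0 of 4 and 1 of 7. The remaining lists lay between these. The median-of-ratios size factor, a library's typical gene level relative to all 6, was 0.778 here, against 0.929 to 1.19 elsewhere. A typical gene was thus low in this library. The share of all genes tested that were lowest in this library was not counted.

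TPM values correct for transcript length and give a gene's share of the library, which sums to 1000000 in each library and so keeps no record of sequencing depth. The number of genes reaching 1 TPM was 11080, 10890 and 11866 in radiotherapy replicates 1 to 3, and 11650, 11381 and 10902 in control replicates 1 to 3. Replicate values below follow that order of replicates. The labelled tissue had its defining markers: the 6 genes listed here as fast muscle fibre markers, Acta1, Ckm, Myh4, Mylpf, Tnnt3 and Pvalb, summed to 93180, 50930 and 84710 TPM in radiotherapy, against 120200, 112900 and 110700 TPM in control. Acta1 and Ckm are not restricted to fast fibres, so this list and its sum are not specific to them. Radiotherapy replicate 2 stood apart with the lowest of these sums and with 22.5% of TPM from mitochondrial genes, against 8.93% to 18.9% in the other libraries. Control replicate 1 stood apart with the highest value of all 7 leukocyte markers, summing to 1744 TPM in that library, against 156 to 744 TPM elsewhere. In bulk muscle, fewer cells of a type and less RNA per cell cannot be told apart.

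Across all 6 libraries the TPM levels of the 10 genes covered a wide range. Oaz1 was the most abundant, with a mean over the 6 libraries of 277 TPM, followed by Oaz2 with 127 TPM, and this order held in 6 of 6 libraries. Odc1 averaged 74.7 TPM, Sms 52.3 TPM and Sat1 48.1 TPM. These neighbours did not differ beyond their spread, since Odc1 was above Sms in 4 libraries and Sms above Sat1 in 3. Amd1 averaged 22.3 TPM and Smox 16.0 TPM. Azin1, Srm and Paox were the lowest, with means of 6.64, 6.61 and 5.94 TPM, and their order changed from library to library. All 10 genes passed the filter of at least 1 TPM in at least 3 libraries, and each was above 3 TPM in every library.

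**Figure D1:**
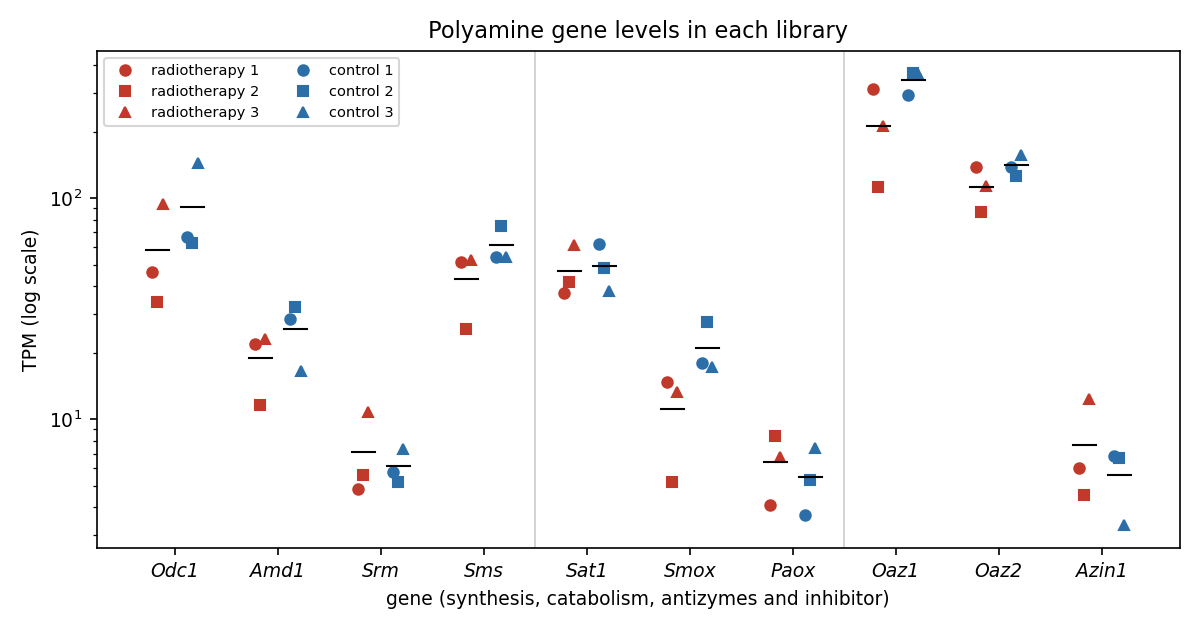
TPM of the 10 polyamine genes in each library on a log axis, radiotherapy in red left of control in blue, with a black bar at the group mean. Oaz1 and Oaz2 lie above the other genes in every library, and the square of radiotherapy replicate 2 is the lowest point for 6 genes.

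Synthesis starts with Odc1 (ENSMUSG00000011179), which encodes ornithine decarboxylase, the enzyme that makes putrescine and usually sets the pace of the pathway. Its level was 46.1, 33.9 and 94.2 TPM in the radiotherapy libraries, against 66.8, 62.5 and 145 TPM in the control libraries. Radiotherapy replicate 3 was above 2 of the 3 control values, and control replicate 3 was the highest of all 6, so the groups overlapped. The log2 fold change was −0.67 (SE 0.43, 95% interval −1.65 to 0.31, limma adjusted p = 0.977). Fold changes here are radiotherapy minus control on the log2(TPM + 1) scale, which understates changes of low genes.

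Amd1 (ENSMUSG00000075232) encodes S-adenosylmethionine decarboxylase, which supplies the aminopropyl groups for both later steps. It was at 22.0, 11.7 and 23.0 TPM in radiotherapy, against 28.5, 32.0 and 16.6 TPM in control. The lowest value was in radiotherapy replicate 2, and control replicate 3 was below the other radiotherapy values. Its log2 fold change was −0.43 (SE 0.34, 95% interval −1.21 to 0.35, limma adjusted p = 0.977).

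Srm (ENSMUSG00000006442) encodes spermidine synthase, which turns putrescine into spermidine. Its values were 4.84, 5.62 and 10.8 TPM in the radiotherapy libraries, against 5.79, 5.22 and 7.35 TPM in the control libraries. Both the lowest and the highest value of the 6 were in radiotherapy muscle, and the group SD of 3.25 TPM in radiotherapy was larger than the difference between the means. The log2 fold change was 0.12 (SE 0.31, 95% interval −0.57 to 0.82, limma adjusted p = 0.985), and without radiotherapy replicate 3 it was −0.18. The interval leaves room for a change of either sign.

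Sms (ENSMUSG00000071708) encodes spermine synthase, which turns spermidine into spermine. It was at 51.5, 25.7 and 52.7 TPM in radiotherapy and at 54.2, 75.2 and 54.5 TPM in control. The groups did not overlap, with radiotherapy lower, but the highest radiotherapy value was close to the lowest control value, and the gap came mostly from radiotherapy replicate 2 and control replicate 2. The log2 fold change was −0.54 (SE 0.32, 95% interval −1.27 to 0.18, limma adjusted p = 0.977) and −0.21 without radiotherapy replicate 2. Per 1000000 transcripts, Sms mRNA was more abundant than Srm mRNA in all 6 libraries.

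Catabolism by acetylation begins with Sat1 (ENSMUSG00000025283), which encodes spermidine/spermine N1-acetyltransferase, the inducible enzyme that marks polyamines for oxidation or export. It was at 37.2, 41.9 and 61.7 TPM in radiotherapy, against 61.8, 48.1 and 38.0 TPM in control. The groups covered nearly the same range, with a log2 fold change of −0.08 (SE 0.28, 95% interval −0.72 to 0.57, limma adjusted p = 0.991). The sign of this value was positive under median-of-ratios scaling (0.06) and quantile normalization (0.11), and in the absence of radiotherapy replicate 1 or control replicate 1.

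Paox (ENSMUSG00000025464) encodes the peroxisomal oxidase that takes acetylated polyamines back to spermidine and putrescine. It was at 4.11, 8.40 and 6.75 TPM in radiotherapy, against 3.69, 5.29 and 7.42 TPM in control. It was the only one of the 10 genes with its highest value in radiotherapy replicate 2. The groups overlapped, and the log2 fold change had a limma adjusted p of 0.980 with a 95% interval of −0.52 to 0.91.

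Smox (ENSMUSG00000027333) encodes spermine oxidase, which converts spermine directly to spermidine. Its level was 14.7, 5.22 and 13.4 TPM in the radiotherapy libraries, against 17.9, 27.6 and 17.3 TPM in the control libraries. Every radiotherapy value was below every control value, and the extremes were radiotherapy replicate 2 and control replicate 2. The means were 11.1 ± 5.14 TPM in radiotherapy and 20.9 ± 5.77 TPM in control (SD, n = 3 each). Of the 10 genes it had the lowest log2 fold change, −0.94 (SE 0.38, 95% interval −1.80 to −0.08), which did not pass limma over all genes tested (adjusted p = 0.977). Without radiotherapy replicate 2 the log2 fold change was −0.51.

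Smox and Sms catalyse opposite reactions between spermidine and spermine, and they were the genes whose groups did not overlap. The 250 bases before their annotated starts are therefore printed here from the RefSeq promoter table (GRCm38.p6), each 5′ to 3′ on the gene's own strand. The Smox window is chr2:131491612-131491861 on the plus strand, and the Sms window is chrX:157492288-157492537 on the minus strand, the outermost of its 2 annotated starts. Capitals mark the GC box GGGCGG, the E-box CACGTG bound by Myc and Max, and the CCAAT box CCAAT, each searched on both strands.
Smox: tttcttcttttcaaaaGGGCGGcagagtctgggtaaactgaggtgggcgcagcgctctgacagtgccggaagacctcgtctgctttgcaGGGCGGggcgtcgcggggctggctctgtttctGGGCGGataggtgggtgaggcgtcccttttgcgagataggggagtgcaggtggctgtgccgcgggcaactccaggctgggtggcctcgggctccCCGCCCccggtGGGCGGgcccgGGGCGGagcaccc
Sms: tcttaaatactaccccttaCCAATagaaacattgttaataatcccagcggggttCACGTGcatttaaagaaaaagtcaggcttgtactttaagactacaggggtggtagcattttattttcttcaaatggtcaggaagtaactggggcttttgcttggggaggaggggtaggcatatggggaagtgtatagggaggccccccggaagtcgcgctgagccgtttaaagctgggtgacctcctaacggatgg
The Smox window held 6 GC boxes and neither of the other motifs. The printed Sms window held 1 E-box and 1 CCAAT box and no GC box, whereas the window of its other annotated start held 4 GC boxes. Of the 10 genes, 8 matched the promoter table, and Srm and Azin1 did not. The 8 genes have 10 windows, since Sms and Paox have 2 each. A GC box was in 8 of the 10 windows (7 of the genes), the E-box in 1 (Sms) and the CCAAT box in 2 (Oaz1 and Sms). Over the 250 bases before all 32851 starts of the table, 32.7% of windows held a GC box, 6.02% an E-box and 33.8% a CCAAT box. The cAMP response element TGACGTCA and the TATA box TATAAA, in 1.55% and 12.4% of all windows, were in none of the 10. The shares among starts of the genes tested here were not counted, so these percentages are not a background for expressed genes. These matches describe letters and not binding.

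Oaz1 (ENSMUSG00000035242) encodes antizyme 1, which binds ornithine decarboxylase, promotes its degradation and reduces polyamine uptake. It was at 311, 113 and 213 TPM in radiotherapy, against 293, 367 and 364 TPM in control. Radiotherapy replicate 1 lay above control replicate 1, so the groups overlapped, while the other radiotherapy values were below all control values. The means were 212 ± 99.4 TPM in radiotherapy and 341 ± 42.0 TPM in control (SD, n = 3 each). The log2 fold change was −0.79 (SE 0.35, 95% interval −1.58 to −0.01, limma adjusted p = 0.977), and −0.40 without radiotherapy replicate 2.

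Oaz2 (ENSMUSG00000040652) encodes antizyme 2, a second antizyme that also inhibits ornithine decarboxylase. It was at 139, 86.4 and 113 TPM in radiotherapy, against 139, 126 and 156 TPM in control. The highest radiotherapy value was within the control range, and the lowest was again replicate 2. Its log2 fold change was −0.34 (95% interval −0.89 to 0.22, limma adjusted p = 0.977).

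Azin1 (ENSMUSG00000037458) encodes antizyme inhibitor 1, an inactive relative of ornithine decarboxylase that binds antizymes and frees the enzyme. Its values were 6.05, 4.57 and 12.3 TPM in radiotherapy, against 6.86, 6.70 and 3.32 TPM in control. The highest value was in radiotherapy replicate 3 and the lowest in control replicate 3, and the groups overlapped. The log2 fold change was 0.33 (SE 0.38, 95% interval −0.52 to 1.18, limma adjusted p = 0.979), and −0.03 without radiotherapy replicate 3.

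At an adjusted p of 0.05 or less, limma called 0 of the 10 genes higher and 0 lower, against 0.00% of the 11375 genes tested in each direction. At an unadjusted p under 0.05, 2 of the 10 were lower, Smox and Oaz1, and 0 were higher, against 2.86% of all genes tested lower and 0.967% higher. Without radiotherapy replicate 2, and likewise without control replicate 2, that count of 2 became 0, and without control replicate 3 it was 1. The share of all genes at that p was not computed with these libraries left out, so these counts have no background. Over all genes tested, 50.9% of log2 fold changes were negative without radiotherapy replicate 2, against 67.9% with all libraries. Without control replicates 2 and 3 that share was 67.9% and 66.4%. Groups did not overlap for 2 of 10 genes with all radiotherapy values lower, Smox and Sms, against 7.54% of all genes tested. No member had all radiotherapy values higher, against 1.7% of all genes tested. With median-of-ratios scaling Smox alone was left with all radiotherapy values lower, against 5.56% of all genes tested, and 0 had all higher, against 5.16%.

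The log2 fold change was negative for 7 of the 10 genes and positive for Srm, Paox and Azin1, with a median of −0.38. The median over all genes tested was −0.11, with 67.9% of them negative. Under median-of-ratios scaling, which set the median of all genes to 0.00, the median of the 10 was −0.25. Without radiotherapy replicate 2 these medians were −0.15 for the 10 genes and −0.01 for all genes tested.

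**Figure D2:**
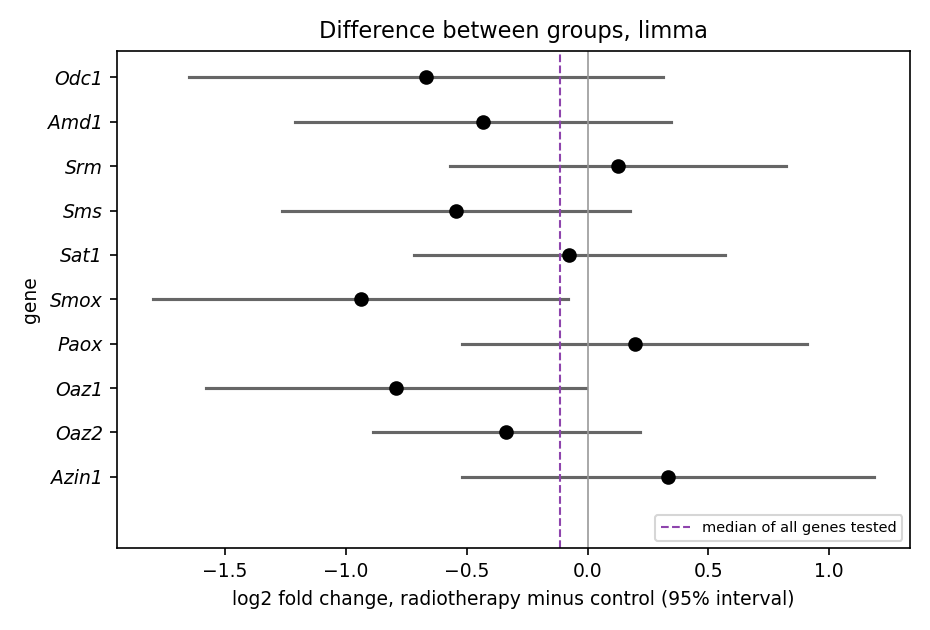
Log2 fold change, radiotherapy minus control, of each polyamine gene (points) with its 95% interval from limma (lines), in pathway order; the dashed line is the median of all genes tested, −0.11. The intervals of Smox and Oaz1 end just below 0, at −0.08 and −0.01, and all others include 0.

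Ratios of genes within a library do not depend on how that library was scaled. Summed TPM of the 4 synthesis genes was 124, 76.8 and 181 in radiotherapy, against 155, 175 and 223 in control. Summed TPM of the 3 catabolic genes was 56.1, 55.5 and 81.8 in radiotherapy, against 83.4, 81.0 and 62.7 in control. The ratio of synthesis to catabolism was thus 2.22, 1.38 and 2.21 in radiotherapy, against 1.86, 2.16 and 3.56 in control. Synthesis transcripts, a sum of 4 genes, exceeded catabolic transcripts, a sum of 3, in all 6 libraries. In radiotherapy replicate 2 this excess needed Odc1. Amd1, Srm and Sms were at only 11.7, 5.62 and 25.7 TPM there, against the catabolic sum of 55.5 TPM. The lowest ratio was in radiotherapy replicate 2 and the highest in control replicate 3, and the groups overlapped.

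The mean ratio was 1.94 ± 0.480 in radiotherapy and 2.53 ± 0.906 in control (SD, n = 3 each), a log2 difference of −0.36 between groups whose log2 SDs were 0.39 in radiotherapy and 0.49 in control. The sums lean on a few genes: Odc1 made up 37.1% to 52.1% of the synthesis sum in radiotherapy and 35.7% to 64.9% in control, and Sat1 66.4% to 75.5% of the catabolic sum in radiotherapy and 59.4% to 74.1% in control. With every gene weighing the same the log2 difference was −0.11, without Odc1 it was −0.23, and without Sat1 −0.02. It was −0.13 without radiotherapy replicate 2, −0.08 without control replicate 3 and −0.55 without control replicate 1.

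Single steps of the pathway were compared in the same way. For the spermine step, the ratio of Sms to Smox was 3.5, 4.92 and 3.95 in radiotherapy, against 3.02, 2.73 and 3.15 in control. Every radiotherapy ratio was above every control ratio, with means of 4.12 ± 0.726 in radiotherapy and 2.97 ± 0.217 in control (SD, n = 3 each), 1.38-fold higher on the log2 mean. The groups overlapped for the other ratios given here. How often ratios of other gene pairs separate the groups was not counted, so this separation has no background. When the transcripts of near-identical gene copies described below were added to Sms, the ratio was 4.12, 4.92 and 4.24 in radiotherapy, against 3.72, 3.26 and 4.43 in control, and the groups overlapped.

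The ratio of Srm to Sms, the enzymes that make spermidine and spermine, was 0.0940, 0.219 and 0.205 in radiotherapy, against 0.107, 0.0694 and 0.135 in control. Radiotherapy replicates 2 and 3 were above all controls, and replicate 1 was below control replicate 1. Amd1 to Sat1, the supply of aminopropyl groups against acetylation, was 0.590, 0.278 and 0.373 in radiotherapy, against 0.461, 0.666 and 0.437 in control, again with overlap.

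For the control of ornithine decarboxylase, Odc1 mRNA was set against the sum of Oaz1 and Oaz2. That ratio was 0.103, 0.170 and 0.289 in radiotherapy, against 0.155, 0.127 and 0.278 in control, a log2 difference of −0.04. With the near-identical copies described below added, it was 0.0773, 0.146 and 0.223 in radiotherapy, against 0.119, 0.0914 and 0.176 in control. The log2 difference was then 0.13, and the groups overlapped in both cases. The pattern shared by both groups was a high value in replicate 3, where Odc1 itself was highest. The ratio of Azin1 to the antizymes was 0.0134, 0.0230 and 0.0378 in radiotherapy, against 0.0159, 0.0136 and 0.00638 in control, 2.04-fold higher on the log2 mean with overlapping groups. Antizyme transcripts outnumbered Odc1 and Azin1 transcripts together in all 6 libraries, with a ratio of Odc1 plus Azin1 to antizymes of 0.116 to 0.327 in radiotherapy and 0.140 to 0.285 in control. Transcript ratios of this kind do not give ratios of active protein, since antizyme translation depends on frameshifting.

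**Figure D3:**
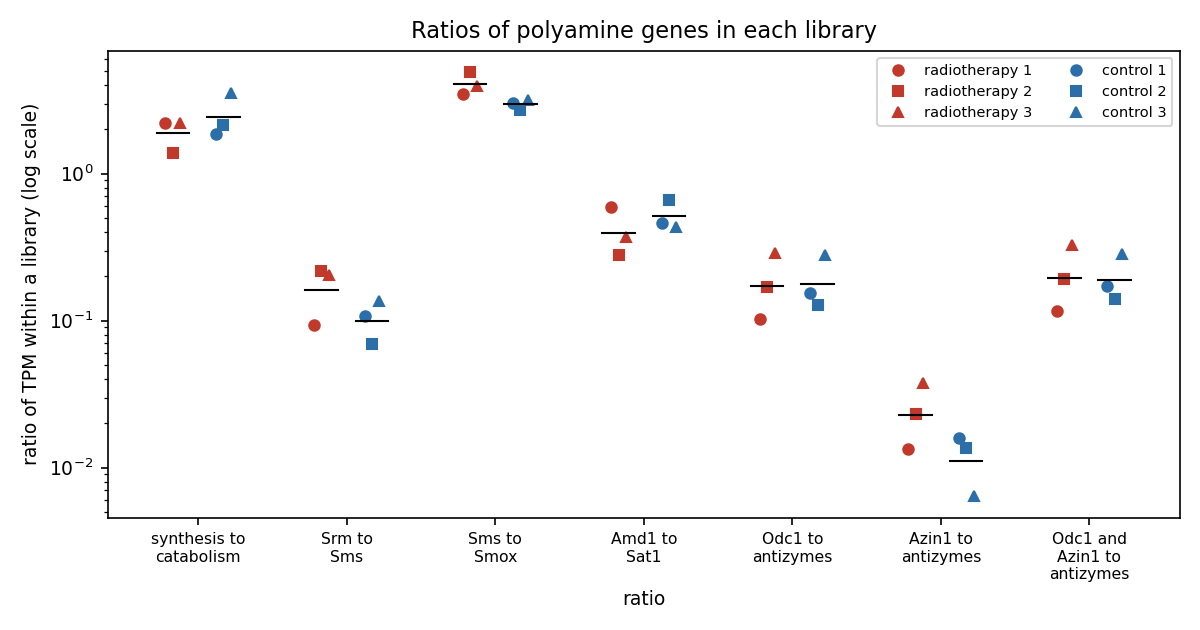
Ratios of TPM between polyamine genes or their sums within each library on a log axis, radiotherapy in red left of control in blue, with a black bar at the mean of the logs. Only the ratio of Sms to Smox has all 3 radiotherapy points (3.5 to 4.92) above all 3 control points (2.73 to 3.15). Near-identical copies are not added here, and with them added the groups overlap for this ratio too.

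The 10 genes did not vary together across libraries. Radiotherapy replicate 2 had the lowest value for Odc1, Amd1, Sms, Smox, Oaz1 and Oaz2, but not for Srm, Sat1, Paox or Azin1. Control replicate 2 had the highest value for Amd1, Sms, Smox and Oaz1. Over the 6 libraries, Pearson's r of log2 values was 0.99 between Smox and Sms and 0.94 between Smox and Oaz1, but −0.06 between Smox and Srm. Without radiotherapy replicate 2 these values were 0.94, 0.70 and −0.53 over 5 libraries. They are descriptions over libraries that share their groups.

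The genes that followed Smox most closely over the 6 libraries, out of 10275 compared, were Gid4 (r = 0.998), Myh4 (r = 0.997) and Atcayos (r = 0.997). Myh4 encodes the myosin heavy chain of fast glycolytic fibres, and was at 6671, 3354 and 5929 TPM in radiotherapy, against 7401, 9393 and 7311 TPM in control. The list of close genes is long, with 568 genes above an r of 0.9 to Smox. Those that followed Srm most closely were Mtf1 (r = 0.995), which encodes a metal-responsive transcription factor, Psmd11 (r = 0.994), which encodes a proteasome subunit, and Heatr1 (r = 0.993), which encodes a factor of ribosome synthesis. Psmd11, with the highest levels of these, was at 50.1, 60.8 and 125 TPM in radiotherapy, against 60.0, 51.6 and 85.7 TPM in control, and 372 genes were above an r of 0.9 to Srm.

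The fast fibre markers were also lowest in radiotherapy replicate 2 by their sum. Of the 6 fast fibre genes, limma called 0, and all 6 log2 fold changes were negative with a median of −0.69, against 67.9% negative and a median of −0.11 over all genes tested. Their groups did not overlap for 5 of the 6, with radiotherapy lower, against 7.54% of all genes tested. Dividing by the fast fibre sum, a scale chosen after seeing the data, places most genes higher in radiotherapy: 93.2% of the 11210 genes above 0 in every library had a positive log2 difference, with a median of 0.49. Per 100000 TPM of summed fast fibre transcripts, Smox was at 15.8, 10.3 and 15.8 in radiotherapy, against 14.9, 24.4 and 15.6 in control. Sms on that scale was at 55.3, 50.4 and 62.2 in radiotherapy, against 45.1, 66.6 and 49.2 in control. On that scale the groups of both genes overlapped, with log2 differences of −0.38 for Smox and 0.08 for Sms.

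Oaz1 per 100000 fast fibre TPM was at 334, 221 and 251 in radiotherapy, against 244, 325 and 329 in control, a log2 difference of −0.16. On this scale 1 of the 10 genes, Azin1, had all radiotherapy values higher, against 23.5% of all genes tested, and 0 had all lower, against 0.246%. Azin1 was at 6.49, 8.97 and 14.5 in radiotherapy, against 5.71, 5.93 and 3.00 in control. Srm on the same scale was at 5.19, 11 and 12.8 in radiotherapy, against 4.82, 4.62 and 6.64 in control, with control replicate 3 above radiotherapy replicate 1. The share of mitochondrial transcripts was higher in radiotherapy too, at 18.9%, 22.5% and 15.1% of TPM, against 10.4%, 13.7% and 8.93% in control. The part of fibre and mitochondrial transcripts in these results was not tested.

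**Figure D4:**
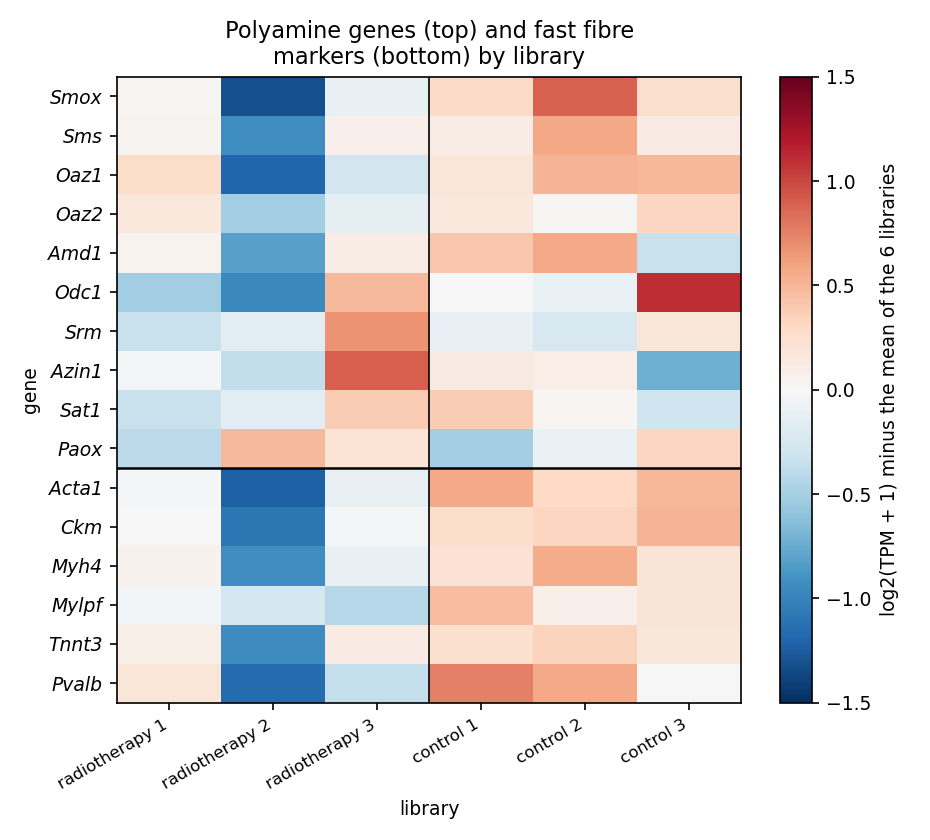
Log2(TPM + 1) of each polyamine gene (upper rows) and each fast fibre marker (lower rows) minus its mean over the 6 libraries, with radiotherapy libraries left of the control libraries; blue is below and red above the mean. Smox, Sms, Oaz1 and the fast fibre markers are lowest in radiotherapy replicate 2 except for Mylpf, whereas Srm and Azin1 are highest in radiotherapy replicate 3.

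Markers of other cell types also differed between libraries. The 4 Schwann cell markers summed to 21.1, 131 and 438 TPM in radiotherapy, against 20.3, 78.7 and 23.9 TPM in control, with the highest sum in radiotherapy replicate 3, where Srm and Azin1 were also highest. The 7 leukocyte markers summed to 156, 175 and 744 TPM in radiotherapy, against 1744, 289 and 279 TPM in control, and Sat1 was highest in control replicate 1 and next in radiotherapy replicate 3. The 4 slow fibre markers summed to 1615, 1478 and 1202 TPM in radiotherapy, against 1797, 1040 and 626 TPM in control. Their part in the values of Srm, Azin1 and Sat1 was not tested. Erythroid markers were lower in radiotherapy, with sums of 1618, 930 and 1520 TPM, against 4178, 7203 and 3352 TPM in control, and 0 of the 5 passed limma. Their groups did not overlap for 5 of the 5, with radiotherapy lower, against 7.54% of all genes tested. Fibroblast, endothelial and adipocyte marker sums overlapped between the groups, at 85.2 to 132, 60.3 to 88.9 and 397 to 877 TPM in radiotherapy, against 81.1 to 175, 59.7 to 80.9 and 240 to 699 TPM in control.

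Several polyamine genes have processed copies elsewhere in the genome whose reads can be confused with theirs. A search of GENCODE M21 transcripts found 35 genes that matched a member at 90% identity or more, of which 3 reached 1 TPM in any library and 16 were at 0 in all 6. The one that matters most is Oaz1-ps, 99.3% identical to Oaz1 over 685 bases, which was at 225, 66.0 and 153 TPM in radiotherapy, against 218, 286 and 382 TPM in control. Sms-ps, identical to Sms over 1101 aligned bases, was at 9.07, 0.00 and 3.82 TPM in radiotherapy, against 12.3, 14.5 and 22.0 TPM in control. Gm7993, 95.7% identical to Odc1 over 1388 bases, was at 5.77, 4.40 and 11.9 TPM in radiotherapy, against 10.0, 8.36 and 13.7 TPM in control. How reads were divided between gene and copy is not given, so the levels of Oaz1, Sms and Odc1 are uncertain by these amounts.

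With copies added, the log2 fold change was −0.94 for Oaz1 and −0.78 for Sms, and 3 of the 10 genes then had an unadjusted limma p under 0.05 with radiotherapy lower, against 2.87% of all genes tested. None passed over all genes tested, and adding copies was chosen after seeing the data. Smox and Azin1 had no such copy. With copies added, the log2 difference of the ratio of synthesis to catabolism was −0.43, and the ratio of Azin1 to antizymes was 2.29-fold higher in radiotherapy. The groups overlapped for both ratios.

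Relatives of the 10 genes were mostly low in this muscle. Of 7 other polyamine genes, Azin2 and Sat2 passed the filter and limma called 0. Azin2, which encodes a second antizyme inhibitor, was at 1.72, 1.07 and 1.24 TPM in radiotherapy, against 1.36, 2.18 and 2.0 TPM in control. Sat2, which encodes an acetyltransferase related to Sat1, was at 4.17, 4.11 and 4.65 TPM in radiotherapy, against 3.99, 2.43 and 4.11 TPM in control. Oaz3, the germ cell antizyme, stayed under 0.5 TPM, Amd2, a copy of Amd1, and Agmat under 1 TPM, and Satl1 and the diamine oxidase gene Aoc1 were listed at 0 in all 6 libraries.

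The supply of ornithine was covered by 12 genes, of which 7 were tested, 0 called, 1 positive and 6 negative, with a median log2 fold change of −0.18. Oat, whose enzyme links ornithine to glutamate, was at 92.2, 52.1 and 96.7 TPM in radiotherapy, against 89.5, 117 and 143 TPM in control (log2 fold change −0.56, limma adjusted p = 0.977). Gamt, of creatine synthesis, had a log2 fold change of −0.72 that rested on 31.7 TPM in control replicate 1. Ass1 of arginine synthesis and the ornithine carrier gene Slc25a15 had values of −0.19 and −0.18. The arginase genes Arg1 and Arg2 were under 0.6 TPM in every library.

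Genes that use or move polyamines gave 0 called of 8 tested among 13 listed, 1 positive and 7 negative, with a median log2 fold change of −0.30. Atp13a2, a lysosomal polyamine exporter, was at 8.30, 5.05 and 7.31 TPM in radiotherapy, against 10.6, 9.66 and 10.7 TPM in control (log2 fold change −0.55, limma adjusted p = 0.977). Gpc1, a proteoglycan linked to polyamine uptake, was at 38.8, 27.5 and 34.4 TPM in radiotherapy, against 44.7, 40.7 and 63.5 TPM in control. Neither gene's groups overlapped, all radiotherapy values being lower, which made 2 of 8, against 7.54% of all genes tested. Dohh and Dhps, which make the spermidine-derived residue hypusine in the translation factor eIF5A, had log2 fold changes of −0.46 and −0.34.

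For the methionine cycle and the salvage of the by-product methylthioadenosine, 9 of 11 genes were tested and 0 called, with 2 positive, 7 negative and a median log2 fold change of −0.16. Adi1, an enzyme of that salvage, was at 21.5, 9.51 and 28.2 TPM in radiotherapy, against 29.1, 31.0 and 26.5 TPM in control (log2 fold change −0.65). Got1, Mri1 and Mtap, of the same route, had log2 fold changes of −0.30, −0.29 and −0.19.

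Of 8 genes that handle the peroxide and aldehydes released by polyamine oxidation, 0 were called, 3 were positive and 5 negative, with a median log2 fold change of −0.07. Gpx1, a glutathione peroxidase, was at 66.5, 41.7 and 62.4 TPM in radiotherapy, against 138, 77.3 and 76.5 TPM in control (log2 fold change −0.73, limma adjusted p = 0.977). Its groups did not overlap, 1 of 8, against 7.54% of all genes tested. Aldh9a1, Aldh2 and Gpx4 had log2 fold changes of 0.41, 0.21 and −0.19.

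Regulators of polyamine genes numbered 8, all tested and 0 called, with 4 positive and 4 negative. Cdkn1a, a p53 target that halts the cell cycle, was at 141, 149.9 and 165 TPM in radiotherapy, against 52.3, 54.1 and 158 TPM in control (log2 fold change 0.98, SE 0.40, limma adjusted p = 0.977). Control replicate 3 was inside the radiotherapy range and the other controls were far below it. Myc, which activates Odc1 transcription in many cells, was at 3.52, 4.33 and 7.93 TPM in radiotherapy, against 4.40, 5.28 and 4.79 TPM in control. Its highest value was in radiotherapy replicate 3, where Srm was also highest, whereas Odc1 was highest in control replicate 3. Radiotherapy replicate 3 had the largest median-of-ratios size factor, 1.19, and the highest value of 4 of the 8 regulators. The glucocorticoid receptor gene Nr3c1 had a log2 fold change of −0.40, and Nfe2l2 of the oxidative stress response −0.44. Max, Ppargc1a and Mtor had log2 fold changes of 0.17, 0.05 and −0.36.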

How the data were processed

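The authors deposited 1 table of TPM values per gene, 1 column per library. HISAT2, StringTie, RSEM and build mm9 are named per the submitters' processing notes; the sources used here do not give their versions or roles, nor the annotation. All columns summed to 1000000 within 1, so depth and counting error are unknown; 0 columns were left unmapped. The labels do not say that samples are separate mice, so p-values measure only the spread between these samples.

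The 11375 genes that reached 1 TPM in 3 or more of the 6 libraries were tested on log2(TPM + 1) with limma 3.58.1 in R 4.3.3 (trend, two-sided, group only), Benjamini-Hochberg adjusted over all of them at 0.05; the procedure was also tested on simulated data. Ratios used TPM and have no test. Alternatives were other scalings, filters, limma settings and a pseudocount of 0.1, a replicate block, and each library left out in turn. Replicate numbers are shared between groups without stated pairing. Copies were found with blastn 2.17.0 (at least 250 aligned bases covering 50% of the copy, same strand). All 10 members, the tested regulators except 1 that is not reported here, and up to 4 genes of smallest p per other list are named. Members and lists were chosen with earlier results of these data known. RefSeq windows (GRCm38.p6) served for promoters only. Figures used matplotlib 3.10.9 in Python 3.11.15.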

Additional observations from a re-analysis of the deposited data

How the results depend on the processing

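Over 160 alternative values for the 10 genes (16 settings each), no gene passed limma, with a lowest adjusted p of 0.507, and 8 values changed sign. Smox ranged from −1.18 to −0.51, Oaz1 from −1.13 to −0.40, Odc1 from −1.08 to −0.28, Sms from −0.78 to −0.21, Amd1 from −0.71 to −0.13 and Oaz2 from −0.50 to −0.16 on the log2 scale. Sat1 was at 0.064 with median-of-ratios scaling, 0.11 with quantile normalization and 0.036 with the 50 most abundant and the mitochondrial genes removed. With 1 library left out in turn, Sat1 ranged from −0.29 to 0.10, Srm from −0.18 to 0.32, Paox from −0.017 to 0.44 and Azin1 from −0.029 to 0.60. Genes called higher over the whole table ranged from 0 to 1 in the same way: Gm24497 without radiotherapy replicate 1 and Gm55635 without control replicate 1, both named after their values were seen. The count of the 10 genes at an unadjusted p under 0.05 and lower ranged from 0 to 3, with 0 also when no filter was used or abundant genes were removed. The share of all genes tested at that p was computed only for the main fit and with copies summed. Summing copies was chosen after seeing the data.

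The fit with the replicate block called 0 genes and 0 of the 10 members. Deviations from the group mean had an r of −0.06, 0.02 and −0.11 between same-numbered libraries. Between differently numbered libraries r ranged from −0.125 to 0.171. With 3 libraries a group these values cannot decide whether the numbers pair samples. With 3 libraries a group and unknown depth, the 95% intervals of 8 of the 10 genes include both signs.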
